A study of Mus musculus with 28 samples.

Results

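CD4+ T cells of the small intestinal lamina propria were compared between mice given an antibody against CD3 (aCD3) and mice given an isotype control antibody, both kept specific-pathogen-free (SPF), that is, with a gut flora. The libraries were chosen by the SPF arm and the antibody named in the columns of the deposited expression table, which gave 6 SPF aCD3 and 6 SPF isotype libraries of 28 in the series. By the letter in the titles, each group held 3 female and 3 male libraries. Every mouse of both groups carried the T-bet-ZsGreen genotype, a fluorescent reporter of the Th1 transcription factor T-bet, so the control mice carried it too. The cells were sorted as live CD45+ CD90.2+ TCRb+ CD4+ lymphocytes, a gate that takes helper, regulatory and follicular cells together and does not separate reporter-bright from reporter-dim cells. The strain background, age, antibody dose and time from injection to sampling were not given in the sources used here. The labels do not say whether libraries of the same group and sex came from separate animals, so the p-values measure only the spread between these libraries, which may be technical.

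CD3 is the signalling part of the T cell receptor (TCR), and an antibody that binds it can trigger every T cell whatever its antigen. A triggered T cell switches on immediate early transcription factors such as Fos, Jun and the Nr4a family within a short time, then cytokines and surface receptors, and later the genes of cell division. Repeated or strong triggering is also known to bring up co-inhibitory receptors such as LAG-3 and TIM-3, which hold back the response, and interleukin 10 (IL-10), the cytokine that marks type 1 regulatory (Tr1) cells. In the small intestine, injected aCD3 is known for calling up IL-10-producing CD4+ cells, among them cells of the Th17 lineage.

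Expression was measured by RNA sequencing and deposited as TPM, reads per gene length as a share of the library, where the length is the whole genomic span of a gene with its introns. Levels of different genes are therefore not compared below. Because TPM is a share and histone genes took a much larger share after aCD3, each library was divided by a median-of-ratios factor. Levels are given in these scaled TPM, as the median of a group with its lowest and highest library in square brackets. Changes are log2 fold changes (log2FC) of aCD3 against isotype on log2(scaled TPM + 1), a scale that understates the change of low genes, and "rose by" or "fell by" gives a size in these log2 units. "Rose" and "fell" are used of genes whose limma test, adjusted over all genes by Benjamini-Hochberg, gave an adjusted p under 0.05.

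The libraries held between 8452636 and 13193754 reads in genes. The first principal component held 57% of the variance and the second 9.83%. Correlations between libraries were 0.928 to 0.976 within a group and 0.848 to 0.908 between groups. Limma's library weights, lower for libraries with a wider spread, were lowest for isotype F2 (0.344) and F3 (0.659), against 0.834 to 1.70 in the others. The aCD3 library F1 was the highest for neutrophil genes (given with the markers of other cells), and isotype F3 had a high share of the ribosomal RNA precursor Rn45s, 22.9% of summed TPM. Of 11202 genes tested, 3700 rose (33%) and 3385 fell (30.2%), so 63.2% changed. The counts of gene lists given below are to be read against these shares. At least 2-fold changes were fewer, with 894 genes higher (7.98%) and 534 lower (4.77%), or 12.7% together. Every aCD3 library lay above every isotype library for 22% of genes and below for 19.7%. With TPM as deposited, unscaled, the split was 1697 higher and 5880 lower and the median of all genes moved from 0.01 to -0.34, so small changes have a direction only relative to the scaling. Without isotype F2 and F3 together, 3626 genes rose and 3286 fell.

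**Figure D1:**
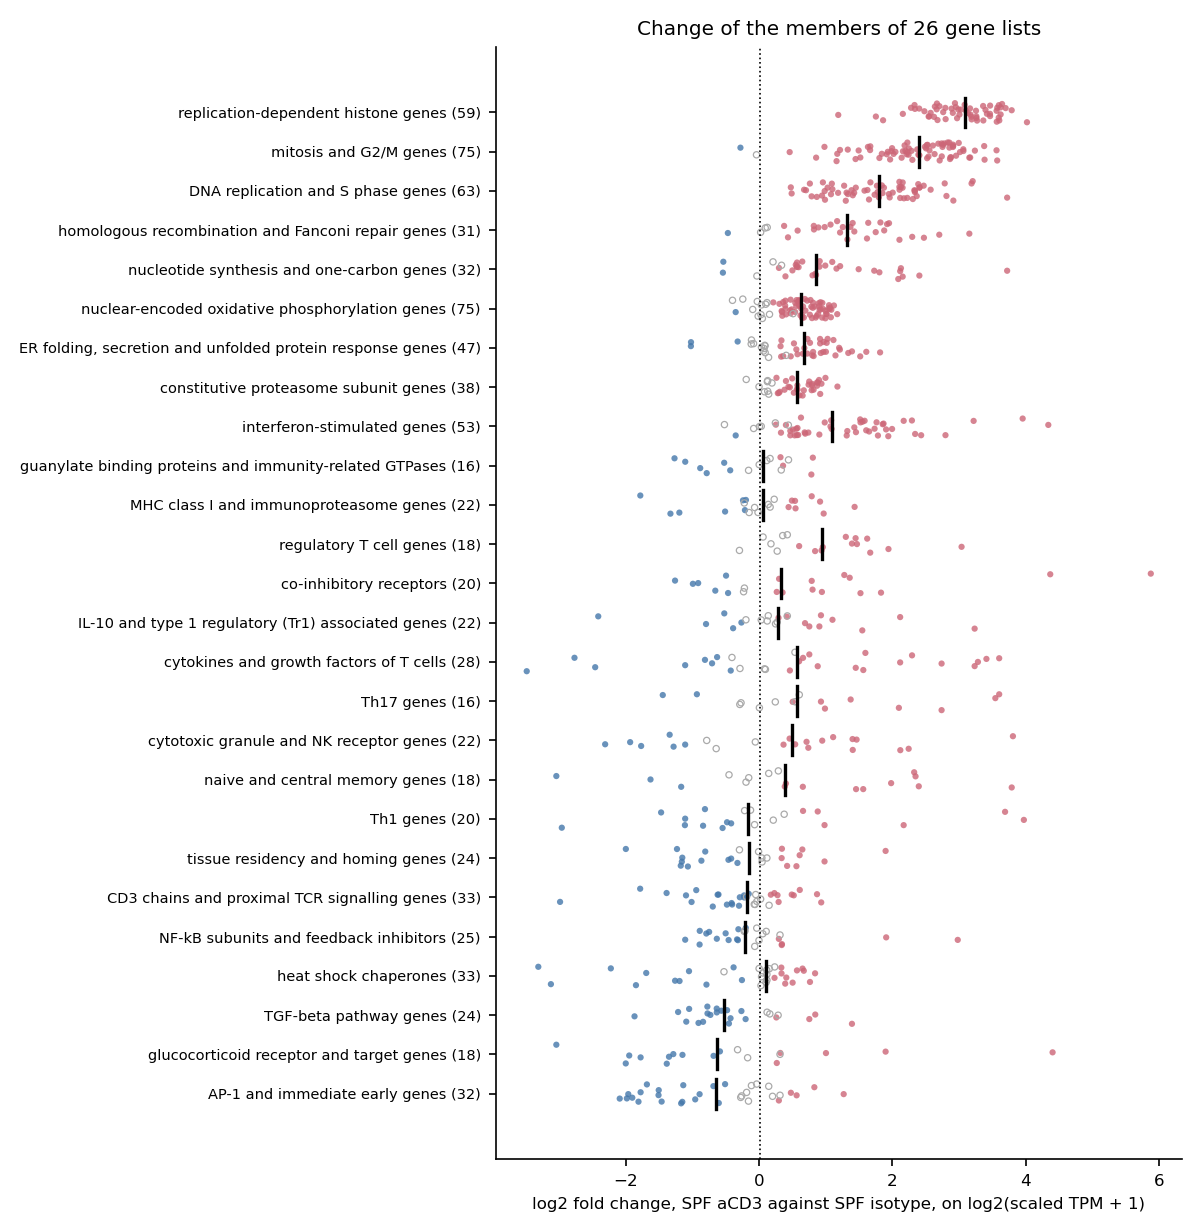
Log2 fold change of every tested member of 26 gene lists, aCD3 against isotype, with the number of tested members in parentheses. Red points rose, blue points fell, open points did not pass the test, black bars are list medians and the dotted line is the median of all genes (0.01). Histone, mitosis and replication genes lie almost wholly to the right, immediate early and TGF-beta genes mostly to the left, and chaperone, MHC class I and GTPase lists on both sides.

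The genes of the cells that were sorted were present in every library. Cd4 was 176 [166 to 188] scaled TPM in isotype and 253 [241 to 263] in aCD3, and Cd3e was 281 [241 to 287] and 419 [373 to 467]. Both rose, with log2 fold changes of 0.52 and 0.61, though not with TPM as deposited (0.10 and 0.19). All 16 listed CD4 T cell genes passed the filter. Of these, 9 rose and 5 fell, 2 of them at least 2-fold lower. Thy1, which encodes the CD90 of the gate, was 518 [470.0 to 593] in isotype and 492 [436 to 526] in aCD3 and did not pass the test, though it passed as lower with TPM as deposited (-0.51), with quantile normalization (-0.74) and without Rn45s and histone genes (-0.25). Both CD8 chains were low but rose, Cd8a from 6.29 [4.34 to 13] to 17.1 [10.8 to 25.2] (log2FC 1.18) and Cd8b1 from 0.608 [0.0762 to 0.882] to 1.72 [1.19 to 2.13] (log2FC 0.73), though Cd8a did not pass with the spread taken from all 28 libraries of the series (1.20) or in females alone (1.18). Of 10 tested CD8 and gamma-delta T cell markers 6 rose and 2 fell. Among 20 genes used in every cell, 14 rose and 2 fell, with a median of 0.69 against 0.01 for all genes. The actin gene Actb, for example, rose by 0.94, so a rise of this size was also seen in genes of general use.

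Genes of cell division had the 3 highest median changes among the lists of T cell processes. Of 59 replication-dependent histone genes, which are transcribed in S phase and packaged onto new DNA, 59 rose, all at least 2-fold, with a median of 3.08, against 0.01 for all genes and 33% of all genes that rose. As a share of all summed TPM they took 4.81% (lowest library 3.94%, highest 6.82%) in isotype and 25.3% (23.2% to 26.4%) in aCD3. The groups did not overlap (two-sided exact permutation p = 0.00216, the smallest that arrangements of 6 against 6 libraries can give). Counted as reads, without division by their short spans, the shares were 0.271% and 1.96%. Hist1h2bm, an H2B gene, moved from 179 [78 to 391] to 2886 [2347 to 3723], a log2 fold change of 4.02 (SE 0.28, adjusted p = 2.61e-07). The linker histone Hist1h1b moved from 574 [299 to 1015] to 5880.4 [5104 to 6379] (log2FC 3.36). The smallest change was that of Hist1h1c, a linker histone gene at 4040.3 [3439 to 5096] in isotype and 9556 [7959.9 to 10268] in aCD3 (log2FC 1.19, or 0.11 and not passing with quantile normalization). Most of these histone mRNAs carry no poly(A) tail, and the sources name both a total RNA kit and polyA RNA, so what the share is measured against depends on which holds. Histone genes have near-identical copies, so reads may be split among them, and the list is firmer than any member.

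All 63 tested DNA replication genes rose, 52 of them at least 2-fold, with a median of 1.80. Rrm2, the regulated subunit of ribonucleotide reductase that makes deoxynucleotides, was 20.3 [12.8 to 35.1] in isotype and 286 [255 to 329] in aCD3, a log2 fold change of 3.72 (SE 0.15, adjusted p = 6.63e-09). Mcm10, which helps start the replicative helicase, moved from 1.08 [0.233 to 2.06] to 17.1 [15.2 to 20.7] (log2FC 3.20), and the helicase subunit Mcm5 from 12.5 [9.28 to 18.9] to 67.8 [56.6 to 88.1] (log2FC 2.34). No aCD3 library overlapped the isotype libraries for these 3 genes. At the lower end stood the sliding clamp Pcna, already at 237 [195 to 269.9] in isotype and 496 [413 to 596] in aCD3 (log2FC 1.09), Orc1 of the origin recognition complex (log2FC 0.67) and the cyclin E gene Ccne2 (log2FC 0.49), whose libraries overlapped. With TPM as deposited Orc1 (0.33) and Ccne2 (0.09) did not pass, nor did Orc1 in males alone (0.44) or Ccne2 in females alone (0.44). Of 32 genes of nucleotide and one-carbon synthesis, 27 rose and 2 fell. Thymidine kinase Tk1 rose by 2.40, thymidylate synthase Tyms by 2.15, and the pyrimidine enzymes Umps and Cad by 1.16 and 0.90. Impdh1, an enzyme of guanine nucleotide synthesis, went the other way (log2FC -0.54), but did not pass in females alone (-0.40).

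Of 75 mitosis and G2/M genes, 73 rose, 70 of them at least 2-fold, with a median of 2.40, and 72 had every aCD3 library above every isotype library. Birc5 (survivin), part of the complex that corrects chromosome attachment, moved from 6.70 [3.72 to 14.1] to 97.9 [86.7 to 103], a log2 fold change of 3.57 (SE 0.24, adjusted p = 1.66e-07). Cdca3, which targets the mitosis inhibitor Wee1 for destruction, moved from 7.0 [5.28 to 22.7] to 114 [103 to 142] (log2FC 3.56). Mki67 (Ki-67), a standard marker of cycling cells, was 43.7 [31.1 to 64.5] and 348 [304 to 382] (log2FC 2.95), and topoisomerase Top2a was 21.5 [13.7 to 31] and 176 [160.2 to 189] (log2FC 2.99). The cyclin and kinase that start mitosis, Ccnb1 and Cdk1, rose by 3.06 and 2.50. Securin, Pttg1, fell by 0.28 with overlapping libraries, but did not pass in females alone (-0.13). The ubiquitin-conjugating enzyme gene Ube2s, named for its value, did not pass (log2FC -0.04). The condensin subunit Ncapd2 rose by 0.46, though it did not pass with TPM as deposited (0.04), with quantile normalization (0.18) or in females alone (0.21). Of the genes of homologous recombination and Fanconi repair, 27 of 31 rose as well, among them Brca1 (log2FC 2.30) and Brca2 (log2FC 1.75). Fancc fell (log2FC -0.47). In RNA from a sorted population, more cells in division and more RNA of these genes per cell cannot be told apart, and the same holds for every cell type or state named below.

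**Figure D2:**
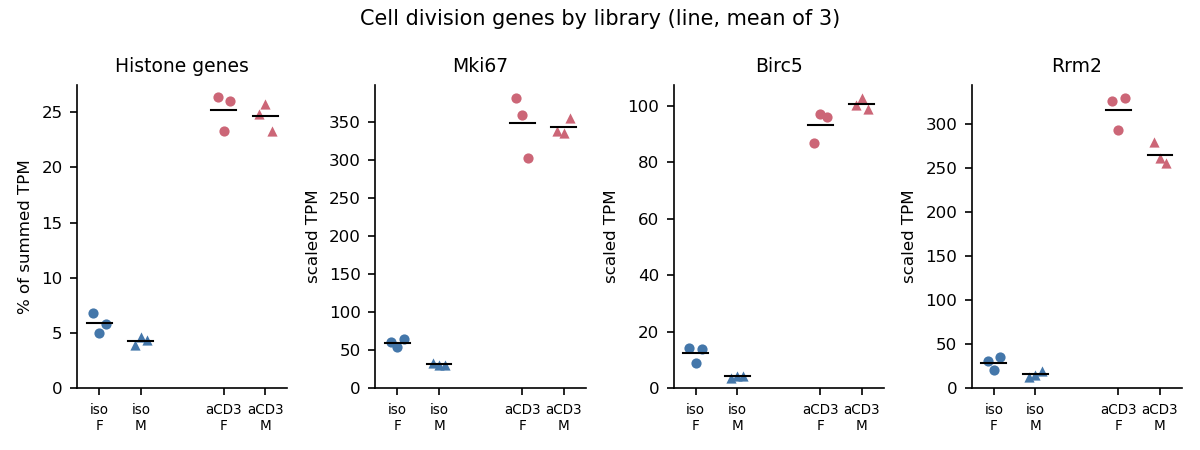
Share of replication-dependent histone genes in summed TPM (percent) and levels of Mki67, Birc5 and Rrm2 (scaled TPM) in each library, by group and sex, with the mean of 3 libraries as a line. The aCD3 libraries lie above all isotype libraries in every panel, and within isotype the female libraries lie above the male ones for Mki67 and Birc5.

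The promoters of a replication and a mitosis gene show the letters known from such genes. Windows from 250 bases before to 50 after the start were read from RefSeq on GRCm38.p6, the assembly of mm10, in both orientations of each motif. In Mcm5 (chr8:75109259-75109558, + strand) capitals mark an E2F site, and in the ubiquitin-conjugating enzyme Ube2c (chr2:164769679-164769978, + strand), which serves the anaphase-promoting complex, TTTGAA of the kind bound by the MuvB complex.
Mcm5: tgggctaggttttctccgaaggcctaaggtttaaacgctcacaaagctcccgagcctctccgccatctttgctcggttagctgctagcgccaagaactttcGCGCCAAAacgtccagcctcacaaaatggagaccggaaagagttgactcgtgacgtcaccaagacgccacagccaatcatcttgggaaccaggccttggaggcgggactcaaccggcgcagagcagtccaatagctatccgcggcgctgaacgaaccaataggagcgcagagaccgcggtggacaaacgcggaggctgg
Ube2c: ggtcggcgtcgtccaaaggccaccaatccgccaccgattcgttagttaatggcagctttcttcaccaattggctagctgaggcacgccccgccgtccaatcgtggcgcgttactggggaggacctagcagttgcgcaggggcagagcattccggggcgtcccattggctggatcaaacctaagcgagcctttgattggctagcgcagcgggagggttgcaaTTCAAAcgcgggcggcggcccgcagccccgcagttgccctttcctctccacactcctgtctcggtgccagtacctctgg
The E2F letters TTTCCCGC or TTTGGCGC stood in 15 of 50 replication promoters (30%) and in 1.63% of all 27025 promoters. TTTGAA stood in 44 of 63 mitosis promoters (69.8%) against 18.1% of all, and CCAAT in 45 of them against 37.9%. Ube2c was chosen for its letters and level after its values were seen. Its level moved from 18.7 [13 to 39.9] to 221 [167 to 241] (log2FC 3.38). A match is a description of the sequence and was not set against binding.

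Brakes on the cell cycle did not move as a block. Of 41 cell cycle brakes, p53 targets and apoptosis genes, 12 rose and 16 fell, with a median of -0.09. These were 29.3% and 39%, against 33% and 30.2% of all genes. A pair of inhibitors of the cyclin D kinases rose with the division genes: Cdkn2c (p18) from 11.8 [8.66 to 18.1] to 60.4 [55.5 to 64.9] (log2FC 2.18) and Cdkn2d (p19) from 15.6 [12.8 to 21.9] to 65 [54.9 to 68.7] (log2FC 1.95). Cdkn1b (p27), the brake of resting T cells, fell by 0.71, and the antiproliferative gene Btg2 fell from 883 [728 to 1024] to 266 [228 to 362]. The survival gene Bcl2 fell from 79.3 [59.3 to 114] to 21.3 [15.4 to 23.7], a log2 fold change of -1.97 (SE 0.13, adjusted p = 1.94e-07), with no overlap of the groups.

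Co-inhibitory receptors held the gene that rose most of all those named by size. Lag3 (NM_008479, mm10 chr6:124904359-124911705, − strand), whose protein binds MHC class II and restrains T cells, moved from 10.8 [7.62 to 18.9] scaled TPM in isotype to 734 [555 to 888] in aCD3, a log2 fold change of 5.87 (SE 0.18, adjusted p = 2.29e-09). Havcr2 (NM_134250, mm10 chr11:46454931-46481254, + strand), which encodes TIM-3, moved from 0.755 [0.404 to 1.19] to 34.6 [32 to 39.3] (log2FC 4.37, SE 0.10, adjusted p = 3.66e-10). Tigit moved from 39.2 [34.3 to 43.1] to 139 [119.9 to 159.6] (log2FC 1.83) and Ctla4 from 476 [268 to 570.2] to 1219 [1144 to 1395] (log2FC 1.52). The lowest aCD3 library stood above the highest isotype library for all 4. Of 20 genes in the list, 12 rose and 6 fell, and those that fell included Cd96 (27.8 [21.9 to 28.6] to 10.4 [7.84 to 13.4], log2FC -1.26), a receptor that shares its ligand with TIGIT, Cd160 (log2FC -0.99) and Cd101 (log2FC -0.91). Cd226, the activating receptor that competes with TIGIT for that ligand, fell from 50.0 [42.4 to 54.4] to 8.41 [7.53 to 8.89] (log2FC -2.41, adjusted p = 2.29e-09). Receptors of the same ligand thus moved apart, Tigit up and Cd226 and Cd96 down, with no overlap of libraries. The purine enzymes CD39 and CD73, which turn ATP into adenosine, are encoded by Entpd1 (log2FC 0.79) and Nt5e (log2FC 0.30), whose rises were small and whose libraries overlapped, that of Nt5e turning to -0.11 with TPM as deposited and not passing with quantile normalization (0.13), without Rn45s and histone genes (0.14) or in females alone (0.12).

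Il10 rose, and the genes linked to it went both ways. Il10 was 81 [59.3 to 107] in isotype and 759 [637 to 843] in aCD3, a log2 fold change of 3.23 (SE 0.13, adjusted p = 6.65e-09). Of 22 Tr1-associated genes 10 rose and 5 fell, with a median of 0.28. The transcription factors that act on the Il10 gene rose less: Prdm1 (Blimp-1) from 64.1 [59.2 to 75.9] to 121 [112 to 136] (log2FC 0.90) and Maf from 695 [647 to 744] to 1107 [1025 to 1235] (log2FC 0.69), the latter turning to -0.16 with quantile normalization. Ahr, another of them, was 61.2 [57.1 to 68.8] and 65.9 [60.3 to 78.7] and did not pass. It turned to -0.29 with TPM as deposited, where it passed as lower, and to -0.14 with quantile normalization. The IL-10 receptor gene Il10ra fell by 0.80, from 25.3 [23.9 to 30.4] to 14.3 [12.7 to 17.4], and Irf1 fell by 0.52. The list was chosen with earlier results of these data known, so its direction is no independent evidence.

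**Figure D3:**
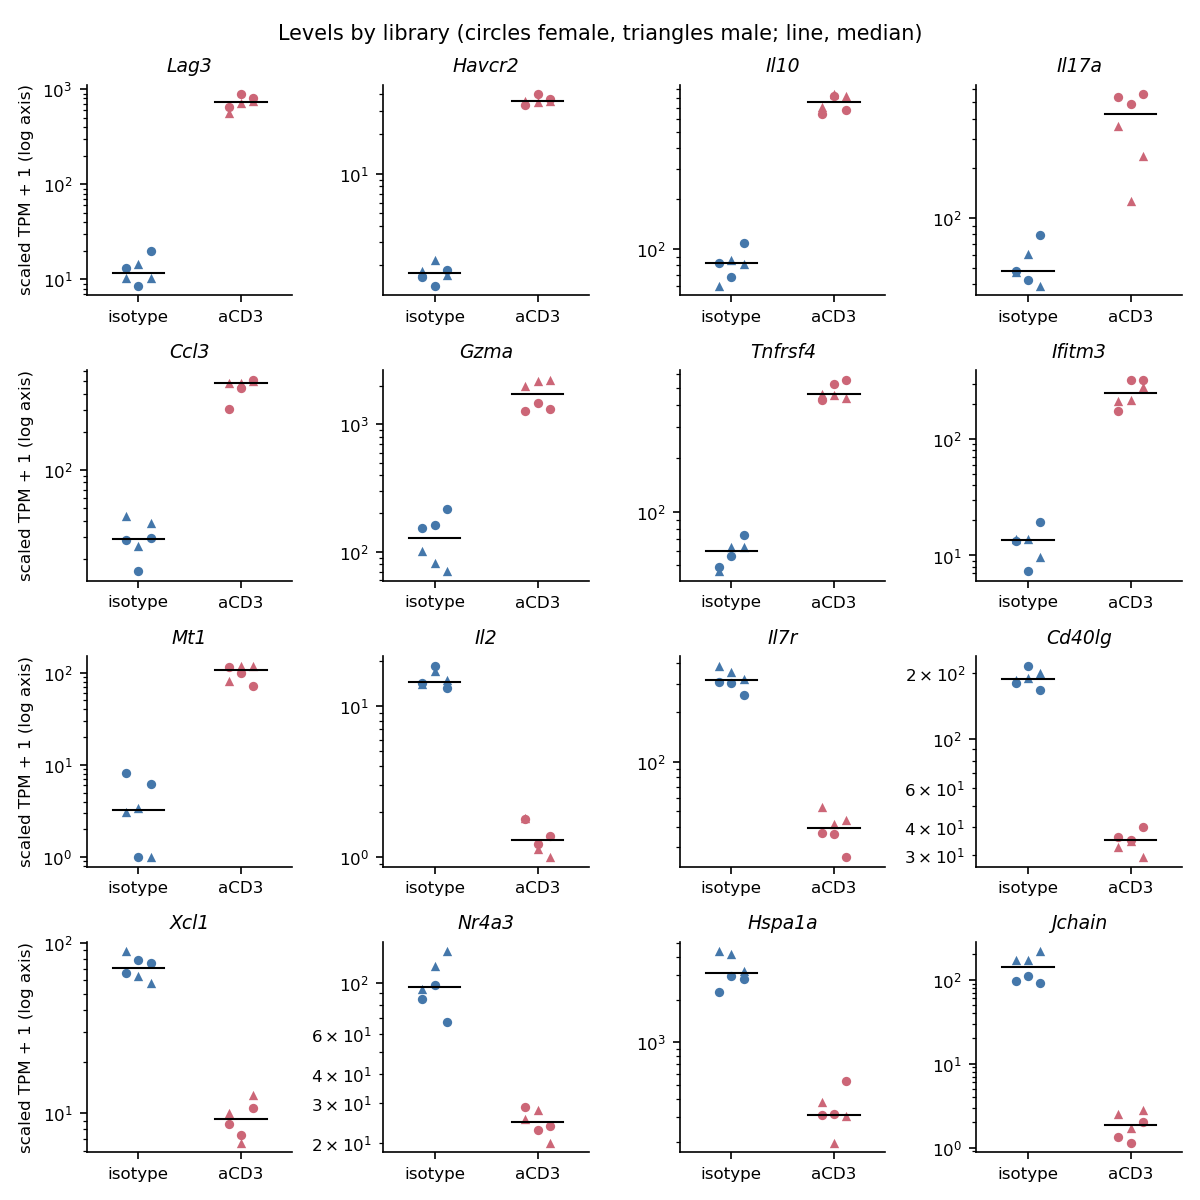
Scaled TPM plus 1, on log axes, of 16 genes in each of the 12 libraries, with circles for female and triangles for male libraries and a line at the group median. For all 16 genes the isotype and aCD3 libraries do not overlap, with 9 genes higher and 7 lower after aCD3.

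Cytokine genes went both ways. Of 28 tested, 15 rose and 8 fell (53.6% and 28.6%, against 33% and 30.2% of all genes). Il17a, the signature cytokine of Th17 cells, moved from 46.9 [38.1 to 78.3] to 425 [125 to 561] (log2FC 2.74, SE 0.29, adjusted p = 6.36e-06), and its partner Il17f from 1.23 [0.127 to 3.16] to 27.6 [8.65 to 47.9] (log2FC 3.60). The follicular helper cytokine Il21 moved from 21.2 [10.9 to 30.4] to 87 [68.8 to 120.3] (log2FC 2.11), and Csf1, the macrophage growth factor, from 1.02 [0.807 to 1.59] to 20.9 [19.1 to 26.8] (log2FC 3.41). Areg, a tissue repair factor of the EGF family, moved from 10.3 [7.39 to 14.4] to 108 [98.3 to 128] (log2FC 3.28). Ifng rose less, from 187 [161 to 213] to 336 [295 to 421] (log2FC 0.88), and Tgfb1 by 0.75. Il22, which acts on the epithelium, was 28.1 [11.3 to 39.3] and 39.6 [12.4 to 69], and did not pass over both sexes together. It passed as higher in females alone (1.62) and was at -0.54 in males, but this difference between the sexes did not pass when tested directly.

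Il2 (NM_008366, mm10 chr3:37120716-37125954, − strand), the growth factor that a newly triggered T cell secretes, was 13.5 [12.1 to 17.5] in isotype and 0.297 [0 to 0.803] in aCD3, a log2 fold change of -3.49 (SE 0.16, adjusted p = 1.10e-08). The aCD3 libraries held a mean of 3.33 Il2 reads, against 152 in isotype. Cd40lg, through which helper T cells act on B cells and dendritic cells, fell from 187 [167 to 215] to 33.8 [28.2 to 39.1] (log2FC -2.46), and Tnfsf14 (LIGHT) from 42.4 [29.1 to 50.5] to 5.09 [3.43 to 6.93] (log2FC -2.77). All 3 fell in every aCD3 library below every isotype library.

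Chemokine genes went both ways. Of 9 tested, 5 rose and 2 fell. The inflammatory chemokines Ccl3 (27.9 [14.9 to 42.5] to 487 [305 to 514], log2FC 3.97, adjusted p = 1.70e-08) and Ccl4 (45.9 [12.8 to 72.8] to 517 [381 to 603], log2FC 3.69) rose, as did the neutrophil chemokine Cxcl3 (1.89 [0 to 5.06] to 33.1 [20.1 to 41.3], log2FC 3.54). Xcl1, a ligand for cross-presenting dendritic cells, fell from 69.9 [57 to 87.8] to 8.27 [5.68 to 11.8] (log2FC -2.96, adjusted p = 4.46e-08), and the interferon-induced Cxcl10 fell by 1.09. Ccl5, in the same family as Ccl3 and Ccl4, was 335 [295 to 379] and 382 [205 to 842] and did not pass over both sexes together. It passed as lower in females alone (-0.58) and as higher in males alone (1.0).

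Among factors of the helper lineages, that of Th1 cells did not pass the test, those of Th2, Th17 and follicular cells fell, and Foxp3 of regulatory cells rose. Tbx21, which encodes T-bet, was 57.8 [47.2 to 67] in isotype and 55.2 [44.6 to 60.1] in aCD3 and did not pass (adjusted p = 0.527), though it passed as lower with TPM as deposited (-0.48) and with quantile normalization (-0.31). Among 20 Th1 genes 6 rose and 9 fell (30% and 45%, against 33% and 30.2% of all genes). The chemokine receptor Cxcr3 fell from 338 [301 to 367] to 120.2 [101 to 153] (log2FC -1.47). The IL-12 receptor gene Il12rb2 fell too (log2FC -0.48), but did not pass with the spread of all 28 libraries (-0.48) or in females alone (-0.43). Among 16 Th17 genes 8 rose and 2 fell. The genes that fell were the lineage factor Rora (61.2 [49.6 to 70.3] to 23.2 [16.4 to 24.3], log2FC -1.45) and the IL-23 receptor gene Il23r (9.44 [8.29 to 11.6] to 4.94 [2.32 to 6.79], log2FC -0.93), while Il17a and Il17f rose. The Th2 factor Gata3 fell from 43.5 [38.6 to 52] to 24.7 [22.2 to 29] (log2FC -0.80), Il4 was 3.23 [1.83 to 7.21] and 2.72 [1.29 to 4.65] and did not pass, and Ccr4 fell by 1.01. Of 12 follicular helper genes 7 rose and 3 fell, with Cxcr5 up (3.77 [1.22 to 5.81] to 7.69 [6.11 to 14.9], log2FC 1.09) and its partners Bcl6 (log2FC -0.45) and Tcf7 (log2FC -1.17) down, both with overlapping libraries and neither passing in females alone (-0.25 and -0.63). The cytokine and the factor of a lineage thus went opposite ways for Th17 cells (Il17a and Rora) and follicular helper cells (Il21 and Bcl6).

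Genes of regulatory T cells rose without exception among those that passed. Of 18 tested, 12 rose (66.7%) and 0 fell, with a median of 0.95 against 0.01 for all genes. Foxp3, the factor that defines these cells, was 19.8 [17.8 to 26.5] in isotype and 39.1 [32.4 to 51.8] in aCD3 (log2FC 0.94, SE 0.13, adjusted p = 8.15e-05). The co-stimulatory TNF receptor gene Tnfrsf4 (OX40) moved from 58.8 [45.1 to 73] to 459 [425 to 554] (log2FC 3.04, adjusted p = 4.01e-09), Tnfrsf9 (4-1BB) from 8.05 [5.46 to 9.91] to 32.9 [25 to 41.3] (log2FC 1.94) and Tnfrsf18 (GITR) from 77.6 [52.4 to 89.6] to 182 [170.4 to 200.2] (log2FC 1.30). Il2ra, the high-affinity IL-2 receptor chain, rose from 9.48 [8.0 to 11.3] to 27.5 [22.8 to 33.5] (log2FC 1.47), Ccr8 from 10.9 [8.90 to 18.6] to 40.1 [26 to 61.3] (log2FC 1.62), and Lrrc32, which holds latent TGF-beta on the surface, from 1.86 [1.40 to 5.19] to 8.02 [6.17 to 10.2] (log2FC 1.39). Ikzf2 (Helios) was 10.6 [8.13 to 12.5] and 11.7 [9.22 to 19.6] and did not pass. It passed as higher in males alone (0.75, against -0.21 in females) and without isotype F2 and F3 together (0.51). Its difference between the sexes did not pass when tested directly. Tnfrsf4, Tnfrsf9, Tnfrsf18 and Il2ra are also raised on any activated T cell. Among all 20 co-stimulatory and TNF family receptors 8 rose and 9 fell, with Cd27 up from 25.4 [16.6 to 32.9] to 139 [83 to 178] (log2FC 2.35), Icos up by 0.84, and the death receptor gene Tnfrsf10b down (log2FC -1.43).

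Granzyme genes rose while 4 receptors shared with natural killer (NK) cells fell. Of 22 tested, 13 rose and 6 fell. Gzma, a granule protease, moved from 127 [69.5 to 215] to 1721 [1279 to 2225] (log2FC 3.81, SE 0.28, adjusted p = 3.38e-07), and Gzmb from 1113 [934 to 1417] to 5701 [3776 to 7193] (log2FC 2.24). The granule protein gene Nkg7 rose from 876 [777 to 1119] to 2492 [1821 to 2623] (log2FC 1.40), and Serpinb6b, a serine protease inhibitor, by 2.12. Perforin, Prf1, which forms the pore for granzymes, rose by 0.46 with overlapping libraries. It did not pass with TPM as deposited (0.04), with quantile normalization (0.24), with the spread of all 28 libraries (0.46) or in females alone (0.32). Klrb1c (NK1.1) fell from 17 [14.2 to 24.2] to 3.01 [2.02 to 3.72] (log2FC -2.31), Klrk1 (NKG2D) from 8.92 [7.45 to 11.9] to 1.79 [0.884 to 3.37] (log2FC -1.94), Ncr1 (NKp46) from 2.96 [2.35 to 4.80] to 0.135 [0 to 0.730] (log2FC -1.77) and Klre1 (log2FC -1.34). None of these 4 overlapped between the groups. They are markers of NK and innate lymphoid cells as well as of some T cells, and whether such cells were carried through the sort was not tested.

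Immediate early genes, which TCR triggering switches on within minutes, were mostly lower after aCD3. Of 32 tested, 18 fell (56.2%, against 30.2% of all genes) and 5 rose, with a median of -0.65. Fos moved from 2194 [2097 to 2417] to 578 [477 to 629] (log2FC -1.98, SE 0.08, adjusted p = 4.41e-09), Jun from 1845 [1693 to 2427] to 489.9 [449 to 563] (log2FC -1.96) and Junb from 6352 [5130.2 to 6631] to 1573 [1442 to 1944] (log2FC -1.90). Klf4, a factor of quiescence, fell from 48 [37.5 to 68.5] to 11 [8.55 to 14.8] (log2FC -2.09), and the early activation marker Cd69 from 572 [447 to 657] to 251 [245 to 270.5] (log2FC -1.15). All 5 were lower in every aCD3 library. Of the Egr genes, Egr3 rose from 16 [14.9 to 19] to 29.2 [22.6 to 42.6] (log2FC 0.83). Egr2 and Egr1 rose by 0.56 and 0.48 with overlapping libraries, but did not pass with TPM as deposited (0.16 and 0.06), nor Egr1 with quantile normalization (0.17) or Egr2 with the spread of all 28 libraries (0.57). Of the Nr4a family, orphan nuclear receptors induced by TCR signals, Nr4a3 fell from 95 [66.3 to 136] to 23.7 [19.1 to 27.9] (log2FC -1.98, adjusted p = 3.97e-07), Nr4a1 fell by 0.40 but did not pass with the spread of all 28 libraries (-0.40) or in females alone (-0.19), and Nr4a2 was 54.6 [45.9 to 81.2] and 58.2 [44.8 to 71.3] and did not pass. Irf8 rose by 1.70 and Tagap, a GTPase-activating protein of activated T cells, fell by 1.40.

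The receptor's own signalling chain was uneven. Of 33 CD3 and proximal signalling genes 9 rose and 17 fell. The CD3 chain gene Cd3d rose from 124 [113 to 182] to 237 [229 to 277] (log2FC 0.87) and the kinase Zap70 from 156 [148 to 179.9] to 309 [262 to 333] (log2FC 0.93). Falls were seen in the Ras activator Rasgrp1 (76.4 [66.6 to 82] to 20.4 [19.5 to 24.4], log2FC -1.79) and Tespa1 (17.4 [15.3 to 24.3] to 1.32 [1.04 to 2.11], log2FC -2.99, adjusted p = 7.88e-09), which is needed for TCR-driven calcium signals in thymocytes. Among 26 brakes on TCR signalling, 10 rose, led by the phosphatase Ubash3b (log2FC 1.09) and the diacylglycerol kinases Dgkz (20.3 [16.7 to 23.5] to 43.1 [38.2 to 51.7], log2FC 1.07) and Dgkh (log2FC 1.02), and 12 fell, led by Pdcd4 (log2FC -1.63) and the adaptor Sit1 (log2FC -1.52). Cblb and Rel, an E3 ligase and an NF-kB subunit of activated T cells, did not pass. Both passed as lower with TPM as deposited (-0.54 and -0.62) and with quantile normalization (-0.28 and -0.40). Rel also passed as lower with limma-voom (-0.21), without Rn45s and histone genes (-0.37) and without isotype library F1 (-0.24) or F3 (-0.26). Of 25 NF-kB genes 5 rose and 12 fell, with the atypical inhibitors Bcl3 (6.84 [5.44 to 7.75] to 27.7 [25.4 to 31.2], log2FC 1.91) and Nfkbid (109 [101 to 146] to 55.5 [40.6 to 59.3], log2FC -1.11) moving in opposite directions and the feedback inhibitor Tnfaip3 (A20) falling (log2FC -0.89). Tnip3, a partner of A20, was 0.154 [0.0789 to 0.270] and 7.93 [6.62 to 10.3] (log2FC 2.98).

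Long genes fell more often than short ones, and the signalling list holds long genes. Ranked by genomic span, the shortest of 5 equal bins of tested genes had a median log2 fold change of 0.16, and the longest bin, of at least 45.7 kb, -0.25, with 1222 of 2241 falling. The median span was 40.7 kb in the signalling list, 50.7 kb in the TGF-beta list and 4.27 kb in the immediate early list, against 16.4 kb for all. After subtracting the median of genes in the same bin, chosen after the data were seen, the list medians were -0.16, -0.36 and -0.81, so all 3 stayed below 0. The cause of this gradient was not tested.

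The receptor genes for survival and growth cytokines moved apart, Il7r down and Il2ra up. Il7r, the receptor chain that keeps resting memory T cells alive, moved from 314 [255 to 386] to 38 [25 to 51.9] (log2FC -3.04, SE 0.10, adjusted p = 2.29e-09). Cish, a STAT5 target that damps cytokine and TCR signals, fell from 148 [131 to 171] to 64 [49.7 to 87] (log2FC -1.17), while the kinase genes Jak3 (log2FC 0.99) and Pim1 (log2FC 0.69) rose, though Pim1 did not pass with TPM as deposited (0.27) or quantile normalization (0.10). Of 23 genes in this list 6 rose and 11 fell.

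Genes of naive and central memory cells and of homing showed a mixed pattern. Of 18 naive and memory genes 10 rose and 3 fell. The lymph node homing receptor Ccr7 (9.21 [5.84 to 15.5] to 41 [20.4 to 88], log2FC 1.98) rose, together with Ly6c1 (0.948 [0.238 to 1.25] to 23.6 [14.4 to 34.8], log2FC 3.79), which has a close copy, and Igfbp4 (log2FC 2.39). The aCD3 library F1 was the highest for Ccr7 and Igfbp4, and without it their log2FC were 1.78 and 2.12. The memory factor Tcf7 and Klf3 (log2FC -1.63) fell. Of 24 residency and homing genes 8 rose and 11 fell (33.3% and 45.8%, against 33% and 30.2% of all genes). Cxcr4 rose from 116 [91.5 to 189] to 460.3 [343 to 542] (log2FC 1.90), while Itga1 (CD49a) fell from 7.71 [4.59 to 10.7] to 2.53 [1.70 to 3.59] (log2FC -1.23) and the lysophosphatidylserine receptor gene Gpr34 from 58.9 [49.8 to 66.8] to 14.6 [9.86 to 19.3] (log2FC -2.0). The gut homing receptor Ccr9 was 447 [395 to 504] and 333 [293 to 356] and fell by 0.46, and Itgae (CD103) was 15.1 [12.5 to 27.1] and 13.3 [7.43 to 24.7] and did not pass. Itgae passed as higher in males alone (0.48), and as lower in females alone (-1.07) and with TPM as deposited (-0.69). Tested directly, its difference between the sexes did not pass.

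Interferon-stimulated genes rose broadly, but the GTPases and MHC genes that interferons also induce did not. Of 53 interferon-stimulated genes 46 rose (86.8%, against 33% of all genes) and 1 fell, with 29 at least 2-fold higher and a median of 1.09. Ifitm3, which blocks virus entry, moved from 12.6 [6.30 to 18.5] to 249.7 [173 to 323] (log2FC 4.34, SE 0.24, adjusted p = 3.88e-08), and Ifi27l2a from 48.3 [25.4 to 98.1] to 838 [448 to 893] (log2FC 3.95). The ubiquitin-like modifier Isg15 moved from 32.1 [27.6 to 60.7] to 139 [69.9 to 212] (log2FC 1.85) and the RNA-binding protein gene Ifit1 from 12.8 [9.23 to 18.4] to 52.5 [22 to 59.3] (log2FC 1.76). Epsti1 fell by 0.35, but did not pass with the spread taken from all 28 libraries of the series (-0.35), in males alone (-0.13) or without isotype F2 and F3 together (-0.29).

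Of 16 guanylate binding proteins and immunity-related GTPases, which interferon gamma induces against intracellular microbes, 4 rose and 6 fell, with a median of 0.06. These were 25% and 37.5%, against 33% and 30.2% of all genes. Gbp7 rose from 70.7 [63.1 to 75.6] to 125 [97.5 to 135] (log2FC 0.78) and Gbp3 by 0.81, while Irgm2 fell from 56.1 [47.1 to 68.8] to 32.5 [20.2 to 37.8] (log2FC -0.88), Gbp8 from 21 [17 to 29.5] to 8.55 [6.88 to 9.63] (log2FC -1.27) and Tgtp1 (log2FC -1.11). Of 22 MHC class I, peptide loading and immunoproteasome genes 8 rose and 7 fell (36.4% and 31.8%, against 33% and 30.2% of all genes), with the peptide transporter Tap1 up (70.2 [61.8 to 85] to 127 [103 to 146], log2FC 0.79) and Nlrc5, the transactivator of class I genes, down (28.5 [27.1 to 31.2] to 11.1 [9.51 to 12.3], log2FC -1.33). H2-Q6 fell by 1.78 and H2-Q4 (log2FC -1.20), and both have near-identical copies among class I genes. GBP genes also have close copies, so single members are less certain than the count.

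Promoters of a gene that rose and a gene that fell both carry the letters of the interferon response element. Capitals mark GAAA followed after any 2 bases by another GAAA, in either orientation, in Isg15 (chr4:156200769-156201068, − strand), where 3 matches overlap, and in Irgm2 (chr11:58214727-58215026, + strand), with 1 match.
Isg15: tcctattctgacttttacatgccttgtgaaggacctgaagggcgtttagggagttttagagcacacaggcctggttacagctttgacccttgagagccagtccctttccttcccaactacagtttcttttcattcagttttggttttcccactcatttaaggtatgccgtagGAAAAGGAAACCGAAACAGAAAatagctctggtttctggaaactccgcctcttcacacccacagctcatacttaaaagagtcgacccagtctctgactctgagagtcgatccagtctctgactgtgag
Irgm2: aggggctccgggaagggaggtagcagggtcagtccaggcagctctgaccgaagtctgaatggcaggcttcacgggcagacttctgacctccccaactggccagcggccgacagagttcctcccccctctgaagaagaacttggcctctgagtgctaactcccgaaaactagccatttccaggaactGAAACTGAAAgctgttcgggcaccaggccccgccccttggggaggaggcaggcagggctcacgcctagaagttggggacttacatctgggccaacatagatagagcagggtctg
These letters stood in 22 of 43 promoters of the interferon-stimulated list found in the table (51.2%), in 9 of 9 of the GTPase list found there, and in 3.49% of all promoters.

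**Figure D4:**
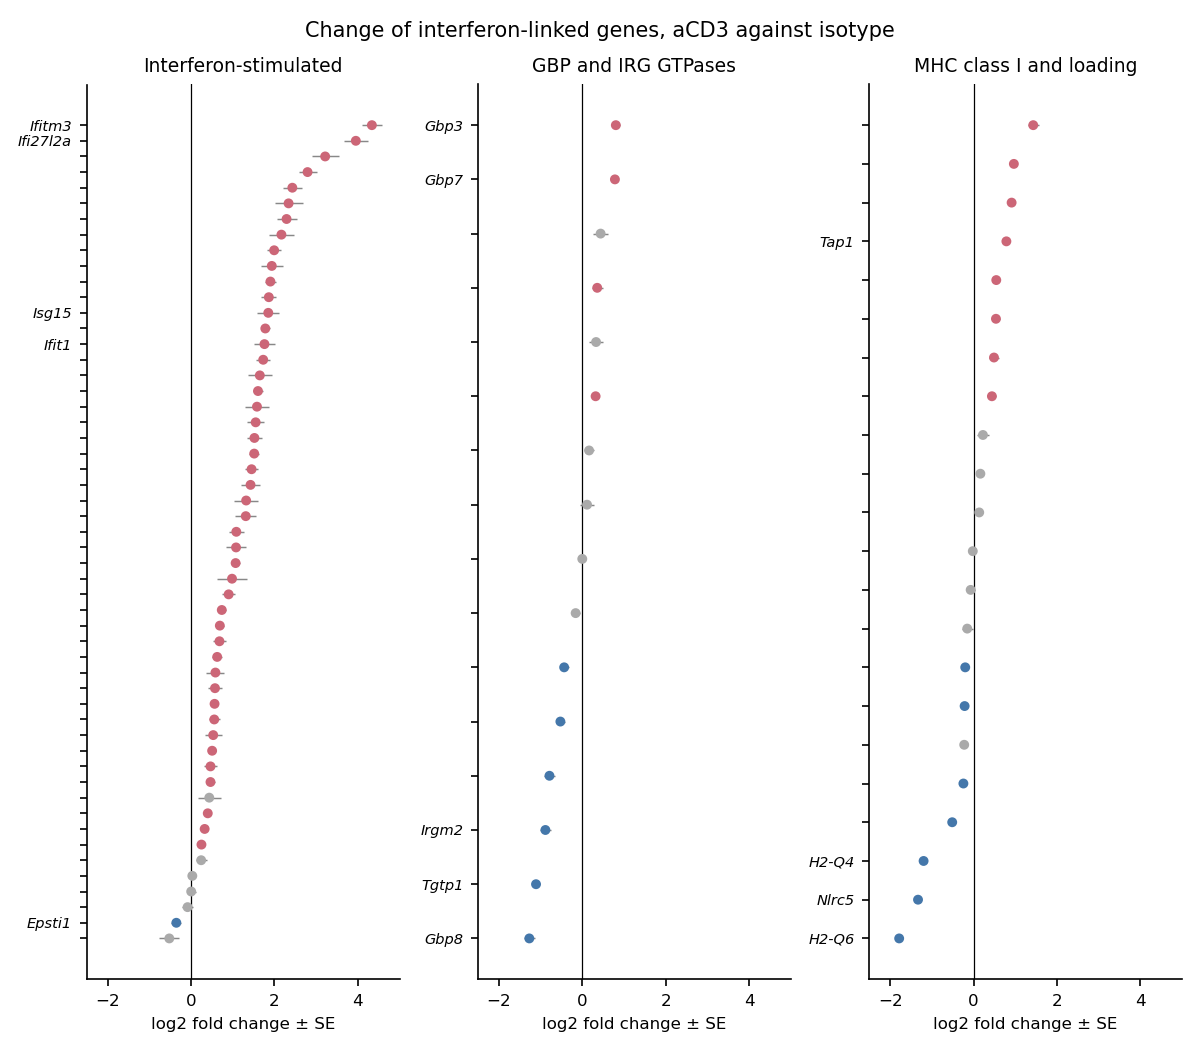
Log2 fold change with its standard error (limma) of each tested interferon-stimulated gene, GTPase gene and MHC class I gene, aCD3 against isotype, n = 6 libraries a group. Red genes rose, blue genes fell and grey genes did not pass, and genes named in the text are labelled. Nearly all interferon-stimulated genes lie right of 0, while the other 2 lists lie on both sides.

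Metallothioneins, small proteins that bind zinc and copper, were among the highest changes. Mt1 (NM_013602, mm10 chr8:94179089-94180327, + strand) moved from 2.23 [0 to 7.18] to 107 [70.1 to 119] (log2FC 5.12, SE 0.50, adjusted p = 3.62e-06), and its neighbour Mt2 from 1.04 [0 to 2.87] to 44.7 [22.8 to 58.3] (log2FC 4.40, adjusted p = 2.26e-07). The isotype libraries differed among themselves, up to 7.18 for Mt1, yet no isotype library came near the lowest aCD3 library, at 70.1. The zinc-sensing factor Mtf1, which drives them, was 4.38 [4.05 to 4.71] and 4.34 [3.37 to 4.75] and did not pass, though it passed as lower with TPM as deposited (-0.38). The zinc exporter Slc30a1, another target of Mtf1, fell from 17.7 [16.1 to 22.5] to 13.3 [11.3 to 15.5] (log2FC -0.44), but did not pass in females alone (-0.32). Of 19 genes of metallothioneins and zinc transport 7 rose and 2 fell (36.8% and 10.5%, against 33% and 30.2% of all genes). In the promoters of Mt1 (chr8:94178839-94179138, + strand) and Mt2 (chr8:94172368-94172667, + strand) capitals mark the core of the metal response element, TGCACNC or TGCGCNC in either orientation.
Mt1: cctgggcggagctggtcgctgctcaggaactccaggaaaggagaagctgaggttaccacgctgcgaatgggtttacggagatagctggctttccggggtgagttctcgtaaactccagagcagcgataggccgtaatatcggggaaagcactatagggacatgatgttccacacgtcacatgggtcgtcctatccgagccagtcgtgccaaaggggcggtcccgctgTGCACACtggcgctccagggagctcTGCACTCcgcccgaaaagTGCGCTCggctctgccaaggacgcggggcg
Mt2: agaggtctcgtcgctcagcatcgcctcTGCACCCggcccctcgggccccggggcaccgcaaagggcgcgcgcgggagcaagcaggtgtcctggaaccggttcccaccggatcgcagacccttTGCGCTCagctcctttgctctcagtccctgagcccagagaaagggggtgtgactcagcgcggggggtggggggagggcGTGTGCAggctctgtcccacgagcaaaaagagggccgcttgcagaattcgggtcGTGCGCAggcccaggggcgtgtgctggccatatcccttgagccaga
They hold 3 and 4 matches. The same letters stood in 9 of 17 promoters of the metallothionein and zinc list found in the table (52.9%), in 27 of 50 of the replication list (54%) and in 25.6% of all promoters.

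Several heat-inducible chaperone genes fell. Hspa1a (NM_010479, mm10 chr17:34969359-34972156, − strand), the heat-inducible HSP70, fell from 3075 [2259.8 to 4386] to 308 [195 to 530.2] (log2FC -3.31, SE 0.23, adjusted p = 2.49e-07), and its near-identical neighbour Hspa1b, which can share reads with it, from 4143 [2821 to 5668] to 482 [263 to 754] (log2FC -3.12). Their helpers fell too: Dnajb1 from 568 [362 to 752] to 143 [138 to 174] (log2FC -1.85), Dnajb4 from 71.7 [62.7 to 86.1] to 14.7 [10.9 to 18] (log2FC -2.23) and Hsph1 (log2FC -1.19). Tcp1 (143 [123 to 174] to 259 [220.2 to 305], log2FC 0.84) and Cct6a (log2FC 0.76), subunits of the cytosolic chaperonin that folds actin and tubulin, rose. Of 33 chaperone genes 11 rose and 11 fell (33.3% and 33.3%, against 33% and 30.2% of all genes). At least 2-fold lower were 8, against 4.77% of all genes, and 0 were at least 2-fold higher, against 7.98%. In the promoter of Hspa1a (chr17:34972107-34972406, − strand) capitals mark GAANNTTC, the core of the heat shock element.
Hspa1a: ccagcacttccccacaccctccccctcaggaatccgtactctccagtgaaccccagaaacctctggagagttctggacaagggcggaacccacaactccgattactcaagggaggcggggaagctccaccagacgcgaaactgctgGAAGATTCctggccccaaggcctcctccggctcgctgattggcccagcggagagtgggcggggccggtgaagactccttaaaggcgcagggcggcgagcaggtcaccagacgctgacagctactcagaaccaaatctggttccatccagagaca
That core stood in 10 of 28 chaperone promoters (35.7%) and in 7.95% of all.

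In the endoplasmic reticulum (ER), folding genes rose. Of 47 ER genes 33 rose and 3 fell (70.2% and 6.38%, against 33% and 30.2% of all genes). Their median was 0.68, against 0.69 for the genes used in every cell. Sdf2l1 (27.4 [19.6 to 32.7] to 98.8 [58.8 to 126], log2FC 1.81), Creld2 (11.8 [9.90 to 16.8] to 40.8 [31.5 to 50.5], log2FC 1.61) and the chaperone Hsp90b1 (GRP94, 214 [197 to 237] to 506 [414 to 558], log2FC 1.20) led, and the main ER chaperone Hspa5 (BiP) rose by 0.76, turning to -0.28 with quantile normalization. The stress sensor Ern1 (IRE1, 15.3 [11.9 to 23.7] to 7.13 [5.70 to 8.45], log2FC -1.02) and its target Dnajb9 (201 [183 to 236] to 100.2 [89.2 to 117], log2FC -1.02) fell. Of 38 proteasome genes 30 rose (78.9%) and 0 fell, with a median of 0.57, also no higher than that of the genes used in every cell. Psmc1 rose by 1.17 and Psma1 by 0.99.

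Genes of oxidative phosphorylation rose widely, while those of glycolysis went both ways. Of 75 nuclear genes of oxidative phosphorylation 62 rose (82.7%) and 1 fell. Their median was 0.63, against 0.69 for the genes used in every cell, of which 70% rose. Examples were Ndufb8 of complex I (34.5 [30.9 to 41.1] to 77 [65.1 to 95.5], log2FC 1.17), Sdhb of complex II (log2FC 1.12) and the ATP synthase subunit Atp5b (log2FC 0.86). Of 27 glycolysis and hypoxia genes 13 rose, led by triose phosphate isomerase Tpi1 (32.4 [24.5 to 37.4] to 125 [106 to 142], log2FC 1.94), the lactate exporter Slc16a3 (log2FC 1.94) and lactate dehydrogenase Ldha (176 [154 to 208] to 554 [514 to 717], log2FC 1.67), and 9 fell. Gapdh, often used as a reference gene, fell by 0.58, from 59.3 [49.8 to 67.6] to 38.6 [36 to 47.2]; it has many processed copies, so its reads may be split. Of 32 cholesterol and fatty acid synthesis genes 15 rose (46.9%, against 33% of all genes) and 4 fell, with a median of 0.11.

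Ribosome genes had medians nearer to that of all genes. Of 80 ribosomal protein genes 32 rose and 10 fell, with a median of 0.14, and of 46 ribosome biogenesis genes 23 rose and 4 fell. Rps2 rose by 1.05, or 0.11 and not passing with quantile normalization, and Rps27 fell by 1.25, and both families have many processed copies. Myc, the driver of ribosome synthesis, was 68.2 [52.4 to 79.8] and 93 [66.9 to 148] and rose by 0.50 with overlapping libraries. It did not pass with TPM as deposited (0.08), with quantile normalization (0.23), without Rn45s and histone genes (0.34) or in males alone (0.19). Of 31 amino acid and ATF4 genes 19 rose and 7 fell. Tfrc, which brings in iron, rose by 1.57, whereas Atf4 (log2FC -0.59) and its target Trib3 (log2FC -1.14) fell.

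The TGF-beta pathway was lower at its receptors and Smads. Of 24 genes 17 fell (70.8%) and 4 rose, with a median of -0.52. The receptor genes Tgfbr2 (38.9 [33 to 42.1] to 17.6 [15.5 to 20.1], log2FC -1.09) and Tgfbr1 (log2FC -0.73), the signal carrier Smad3 (10.5 [9.15 to 13] to 3.93 [3.42 to 4.88], log2FC -1.22) and the feedback inhibitor Smad7 (log2FC -0.78) all fell without overlap. The activin receptor gene Acvr2a fell from 10.6 [8.94 to 11.9] to 2.27 [1.63 to 2.40] (log2FC -1.87). The ligand Tgfb1 and its carrier Lrrc32 were among those that rose.

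Glucocorticoid genes fell more often than they rose. Nr3c1, the receptor, moved from 76.5 [69.7 to 99.2] to 19 [17.4 to 21.2] (log2FC -2.0, adjusted p = 1.14e-08), and its targets Tsc22d3 (GILZ) from 449.8 [349 to 587] to 178 [169 to 209] (log2FC -1.29) and Per1 (log2FC -0.68). Of 18 genes 10 fell and 5 rose, the latter including Mt2, Cxcr4 and Ddit4, which glucocorticoids can induce. In DNA methylation, the maintenance pair Uhrf1 (5.68 [3.38 to 9.05] to 48.2 [33 to 57.1], log2FC 2.81) and Dnmt1 (log2FC 1.31), which act at the replication fork, rose, and the demethylation enzyme Tet3 (log2FC -0.66) and the reader Mbd2 (log2FC -0.73) fell. Among purinergic genes the nucleoside transporter Slc29a1 rose (log2FC 1.13) and the receptor gene P2ry10 fell from 258 [185 to 284] to 111 [93.8 to 116] (log2FC -1.17).

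Among the 12 genes with the lowest and the 12 with the highest change, some fall in none of the T cell lists above. Perp, a p53 target of the cell junction, moved from 0.940 [0.720 to 1.39] to 32.7 [28 to 38.9] (log2FC 4.10, adjusted p = 1.16e-09). Peg13, an imprinted noncoding RNA, fell from 90.0 [81.3 to 104] to 9.34 [7.46 to 11.7] (log2FC -3.14), Icosl, the ligand of ICOS, from 10.6 [8.26 to 12.5] to 0.706 [0.286 to 0.946] (log2FC -2.80), and Jmy, an actin nucleator and p53 cofactor, from 42.5 [31.7 to 55.5] to 6.0 [4.39 to 6.99] (log2FC -2.66). Adamdec1, a metalloprotease of gut macrophages and stroma, was 5.58 [3.15 to 14.3] in isotype and held no read in any aCD3 library. Against a floor of 3 reads in the aCD3 library with the highest value per read, its mean was at least 62.7-fold lower.

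Markers of other cells were mostly low in both groups, and several fell with aCD3. Jchain, the joining chain of plasma cell antibodies, fell from 141 [89.4 to 217] to 0.859 [0.138 to 1.80] (log2FC -6.22, SE 0.16, adjusted p = 8.92e-10), the lowest log2 fold change of all genes tested. The B and plasma list summed to 109.7 to 239 scaled TPM in isotype and 17.7 to 26.3 in aCD3, and without Jchain to 15.4 to 22.3 and 16.2 to 25.9. Only 4 of its 15 genes passed the filter on low values. The stromal list summed to 25.4 to 79.1 and 15 to 18, with Col1a1 at 4.91 [1.08 to 8.58] and 0.256 [0.0878 to 0.594], and 5 of 6 tested genes fell. The erythroid list summed to 13.8 to 29.2 and 6.01 to 9.02, and its defining genes Hbb-bs and Hba-a1, at or near 0 in isotype, were at 0 in all aCD3 libraries.

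The myeloid list went up through Cd68 in all aCD3 libraries. Cd68, a lysosomal protein best known from macrophages, moved from 5.88 [0 to 10.1] to 86.6 [62.3 to 131] (log2FC 4.17, adjusted p = 1.73e-05), while Cd74 and H2-Aa of antigen-presenting cells fell (log2FC -0.98 and -1.29), H2-Aa not passing with the spread of all 28 libraries (-1.36). The list summed to 21.3 to 32.3 in isotype and 74.8 to 180.1 in aCD3. Without Cd68 its median sum was 21.4 in isotype (17.3 to 24) and 9.04 in aCD3 (7.22 to 118), with 21 of 26 genes under a mean of 1 scaled TPM in aCD3. The macrophage genes Csf1r, Adgre1 and Lyz2 were at most 0.173, 0.0116 and 0.576 in any aCD3 library. Neutrophil genes S100a8 and S100a9 were at 75 and 29.3 in aCD3 library F1, at most 1.51 and 0.237 in the other aCD3 libraries and at 0 in every isotype library; with H2-Aa they are named for their values. The epithelial list summed to 9.59 to 48.9 and 11.9 to 62.7. Of its 6 tested genes 3 rose and 2 fell, 1 of them at least 2-fold lower. The antimicrobial lectins Reg3b (0.541 [0 to 4.34] to 13.2 [2.53 to 23.9]) and Reg3g (0 [0 to 2.27] to 8.59 [1.54 to 21.4]) were up, with libraries of the groups overlapping. Neither passed in females alone (2.28 and 2.40). The acinar list was at most 15.2 in isotype and 42.9 in aCD3. The CD8 and gamma-delta list summed to 355 to 477 and 394 to 483, and without its most abundant gene, Il2rb, to 155 to 268 and 116 to 295. The innate lymphoid, NK and mast cell list without its most abundant gene summed to 127 to 157 and 162 to 196, of which Areg, also a T cell product, made up 10.3 [7.39 to 14.4] and 108 [98.3 to 128]. Of its 10 tested genes 3 rose, with Kit up from 0.860 [0.713 to 1.12] to 5.29 [4.65 to 5.80], and 4 fell, among them Klrb1c, Klre1 and Ncr1. The part of other cells in the T cell results was not tested.

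The changes of at least 2-fold had the same direction in females and males. Fitted apart, 3 libraries against 3, 5060 genes passed in females and 6044 in males, and 4180 in both. All 1428 genes changed at least 2-fold over both sexes had the same sign in each, though these values entered that choice. Across 11202 genes, which are not independent replicates, the log2 fold changes of the sexes had a Pearson's r of 0.823 and a Spearman's rho of 0.821. Tested directly as an interaction, 32 genes differed (0.286%), of which 8 had a change higher in females than in males and 24 a lower one. An unadjusted p under 0.05 was reached by 1469, and the count was 11 with TPM as deposited.

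For division genes that passed this test, the female isotype libraries lay above the male ones. Mki67 was 61.3, 54.7 and 64.5 in the 3 female isotype libraries and 32.8, 31.3 and 31.1 in the males. After aCD3 it was 382, 360.1 and 304 in females and 339, 336 and 356 in males, where the sexes overlapped. Its log2 fold change was 2.51 in females and 3.40 in males (difference -0.88, SE 0.13, limma adjusted p = 0.0357). Birc5 was 14.1, 8.94 and 13.9 in female against 3.72, 4.36 and 4.46 in male isotype libraries, and 86.7, 97 and 96 against 100.2, 103 and 98.9 after aCD3 (difference -1.45, limma adjusted p = 0.0331). Of 75 mitosis genes 6 passed this test, and 71 had a higher isotype mean in females, against 45 with a higher aCD3 mean.

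For several effector genes the sexes stood apart after aCD3. Gzma was 1279, 1456 and 1319 in female and 1986, 2165 and 2225 in male aCD3 libraries, and 154, 161 and 215 against 101, 80.2 and 69.5 in isotype, so females were higher in isotype and lower after aCD3, a log2 fold change of 2.94 in females and 4.67 in males (difference -1.73, SE 0.21, limma adjusted p = 0.0171). The protease inhibitor gene Serpinb6b was 109, 114 and 111 in females against 170.3, 205 and 178 in males after aCD3 (difference -0.94, limma adjusted p = 0.0171). Ccl5 overlapped between the sexes in isotype, at 347, 295 and 359 against 379, 297 and 322, but was 205, 257 and 208 in female and 507, 842 and 685 in male aCD3 libraries, a change of -0.58 and 1.0 (difference -1.58, limma adjusted p = 0.0447). The calcium-binding protein gene S100a6 rose to 111, 127 and 115 in females and 384, 274 and 351 in males (difference -2.24, limma adjusted p = 0.0171). The leukotriene receptor gene Ltb4r1 was 26.1, 29.6 and 24 in female and 17.1, 11.3 and 9.50 in male aCD3 libraries (difference 1.90, limma adjusted p = 0.0447), and the IL-17 receptor chain Il17re was 3.30, 4.63 and 3.77 against 2.05, 0.857 and 1.46 (difference 1.76, limma adjusted p = 0.0378). Dnajb1 fell less in females (-1.35 against -2.34). The genes with the lowest adjusted p included Abhd17c (13, 12.6 and 14.2 in female and 7.95, 7.28 and 7.24 in male aCD3 libraries, with isotype at 12.2 [11.1 to 13.5]), the histone gene Hist1h2ba, at 0 in all 3 male isotype libraries, and the Y-linked Ddx3y, which was 79.4, 80.3 and 82.8 in male isotype and 31.8, 35.7 and 28.2 in male aCD3 libraries and near 0 in females, so that its difference between the sexes restates the male values. S100a6, Ltb4r1 and Il17re were picked from the genes that passed after their values were seen. Sex is read from titles, and with 3 libraries of each sex and group it cannot be told apart from other properties those libraries share.

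**Figure D5:**
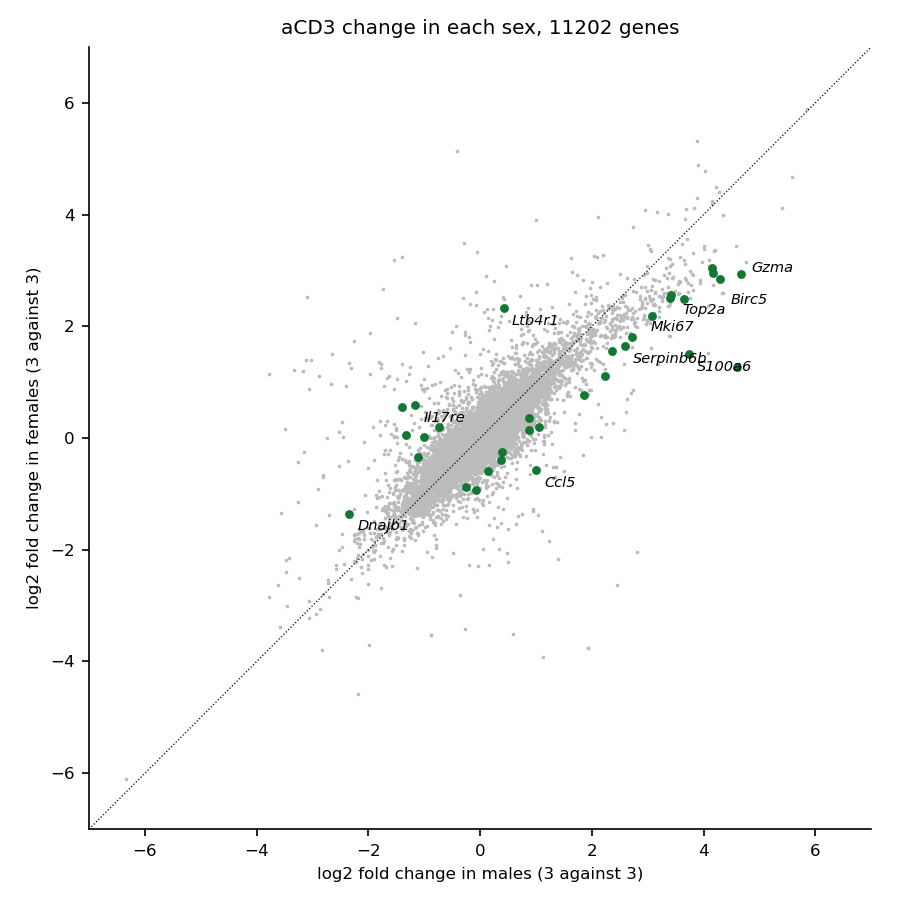
Log2 fold change of each tested gene in females against that in males, 3 libraries against 3 in each sex, with genes whose change differed between the sexes in green and a dotted line of equal change. Most genes lie along the line, the labelled division genes and Gzma lie to its male side and Ltb4r1 and Il17re to its female side.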

How the data were processed

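The lamina propria T cells were sorted and sequenced with single-end reads, per the series' design text. That text names a total RNA library kit, while the molecule label says polyA RNA, and which holds was not settled. The authors deposited 1 table of TPM for 25124 genes, made by HOMER's analyzeRepeats.pl against mm10 with one entry kept per gene, per the file headers. In 99.24% of rows the length was the genomic span, so values are not per length of mature RNA. The aligner's settings and whether counting used strand were not given in the sources used here, so overlapping and antisense genes cannot be told apart, and near-identical copies can share reads. The submitters' processing notes name Cell Ranger 7.1.0, R 4.4.2 and Seurat 5.1.0 without saying for which data. Of 54 TPM columns, 26 match no sample and were not used.

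TPM times length was a whole multiple of 1 step in 100% of low values (within 0.05 read), which gave each library's read total. TPM of the listed genes summed to between 702919 and 786003 per library. Each library was divided by its median-of-ratios factor over the 12336 genes above 0 in all 12 libraries. Genes with at least 1 scaled TPM in 6 libraries were tested on log2(scaled TPM + 1) with limma 3.58.1 (trend, in R 4.3.3), with sex as a covariate, and p-values were adjusted over all 11202 genes. TPM are not counts, so no count model was the main test, and limma-voom on the recovered reads was an alternative, with other scalings, pseudocounts, filters and left-out libraries. The gene floor was 3 reads.

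Members and gene lists were chosen with earlier results of these data known. Named genes were those marked as core in the lists, the 12 highest and 12 lowest changes with a mean of at least 5 scaled TPM in a group, the 2 highest and 2 lowest called members of each list, called members opposite to their list's median (up to 3), and up to 4 genes that differed between the sexes. Some genes that this rule names are not reported here. Promoters came from RefSeq (GRCm38.p6).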

Additional observations from a re-analysis of the deposited data

Results flagged for a closer look

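Of 464 sets of 6 libraries tested for a library far from the others (each gene named in the text and the shares of histone genes and Rn45s, in each group), 16 had one, against 23.2 that chance gives at 1 in 20. Of these, 10 lay in aCD3 library F1 and 3 in isotype library F3. In aCD3 F1 the neutrophil genes S100a8 (75.0 scaled TPM) and S100a9 (29.3) and the macrophage gene Lyz2 (0.576) stood above the other aCD3 libraries. So did the naive and memory genes Igfbp4 (25.2) and Tcf7 (61.0), the follicular receptor Cxcr5 (14.9) and the death receptor Tnfrsf10b (4.43). Ccl3 (305), Ifi27l2a (448) and Actb (22563) were lowest in F1, though Ccl3 and Ifi27l2a there were still above every isotype library. Leaving out aCD3 F1 kept the call of all 223 named and tested genes and the direction of all but Ube2s, which did not pass either way.

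In isotype F3, Foxp3 (26.5), H2-Q6 (375) and the share of Rn45s in summed TPM (22.9%) were above the other isotype libraries. Il4 (7.21) and Reg3b (4.34) were highest in isotype F2, and Gapdh (47.2) was highest in aCD3 M1. What these libraries share was not tested.

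The change differed between the sexes in limma's interaction test for 14 genes named in the text, given here as females minus males in log2 units. It was lower in females for Birc5 (-1.45), Ccnb1 (-1.17), Mki67 (-0.88), Top2a (-0.86), Gzma (-1.73), Serpinb6b (-0.94), Ccl5 (-1.58), S100a6 (-2.24) and Hist1h2ba (-3.34). It was higher in females for Ltb4r1 (1.90), Il17re (1.76), Dnajb1 (0.99), Abhd17c (0.93) and Ddx3y (1.38), the last Y-linked and near 0 in females, so that its value restates the change in males.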

How the results depend on the processing

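The alternatives left 6746 to 7577 of 11202 genes changed (of 11142 without Rn45s and histone genes), apart from other filters (7847 of 19492 genes with no filter, 5379 of 7920 above 5 scaled TPM) and fits of less data (5060 in females alone, 6044 in males alone, and 4868 from 1 mean per group and sex, chosen after seeing the data). Leaving out each library gave 6746 to 7055. The direction depends on scaling: 1697 rose and 5880 fell with TPM as deposited (558 and 1325 at least 2-fold), which is 22.4% higher against 52.2% as reported, and 38.9% were higher when TPM was recomputed without Rn45s and histone genes. At least 2-fold changes numbered 1428, but 772 with a pseudocount of 5 (556 higher, 216 lower), and those at least 2-fold lower numbered 819 with 0.1 and 850 with limma-voom on recovered reads. Genes that differed between the sexes fell to 11 with TPM as deposited. The share of Rn45s in summed TPM differed by -2.64 percentage points, aCD3 minus isotype (exact permutation p = 0.0368). Without isotype F3 the difference was -1.20 (exact permutation p = 0.0758), and as a share of recovered reads it was 1.32 (exact permutation p = 0.396), or 2.62 without isotype F3 (exact permutation p = 0.00649).

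Of 223 named and tested genes 207 kept their direction in every alternative, and 218 kept direction and call with each library left out. With TPM as deposited, Ahr (-0.29), Ccl5 (-0.21), Ikzf2 (-0.12) and Nt5e (-0.11) turned, with Ahr passing as lower, 10 calls were lost (Ccne2, Cd3e, Cd4, Egr1, Egr2, Myc, Ncapd2, Orc1, Pim1 and Prf1), and 9 others were gained (Abhd17c, Cblb, Itgae, Mtf1, Nr4a2, Rel, Tbx21, Thy1 and Ube2s, all lower). With quantile normalization Ahr (-0.14), Ccl5 (-0.31), Hspa5 (-0.28) and Maf (-0.16) turned, 8 calls were lost (Egr1, Hist1h1c, Myc, Ncapd2, Nt5e, Pim1, Prf1 and Rps2) and 4 gained (Cblb, Rel, Tbx21 and Thy1, all lower). Without Rn45s and histone genes Ahr turned (-0.037), Myc and Nt5e lost their calls, and Abhd17c, Rel and Thy1 passed as lower. With the spread taken from all 28 libraries 7 calls were lost (Cd8a, Egr2, Epsti1, H2-Aa, Il12rb2, Nr4a1 and Prf1). In females alone Abhd17c (0.20), Ccl5 (-0.58), Ddx3y (0.058), Ikzf2 (-0.21), Il17re (0.59), Mtf1 (0.0051), Nr4a2 (0.0027), Tbx21 (0.076) and Thy1 (0.032) turned, 14 calls were lost (Bcl6, Ccne2, Cd8a, Il12rb2, Impdh1, Ncapd2, Nr4a1, Nt5e, Prf1, Pttg1, Reg3b, Reg3g, Slc30a1 and Tcf7) and Il22 and Il17re (higher) and Itgae and Ccl5 (lower) passed. In males alone Il22 (-0.54), Itgae (0.48) and Ube2s (0.050) turned, 4 calls were lost (Epsti1, Ltb4r1, Myc and Orc1) and Ccl5, Ikzf2 and Itgae (higher) and Abhd17c and Il17re (lower) passed. With single libraries left out, Mtf1 (-0.075 to 0.013, above 0 without aCD3 M2), Nr4a2 (-0.13 to 0.013, above 0 without isotype M3) and Ube2s (-0.093 to 0.024, above 0 without aCD3 F1 or isotype F1) crossed 0. Ddx3y lost its call without aCD3 M1 or M3, without isotype M1, M2 or M3, and with a pseudocount of 0.1 (-0.45). Of 52 list medians taken relative to all genes, 19 moved by at least their standard deviation between libraries with quantile normalization, and 2 more turned. With a pseudocount of 5, 16 moved, with 0.1 or limma-voom 10, and in females or males alone 18. The ribosomal protein median turned to -0.22 with quantile normalization and -0.021 less its span bin, the CD4 T cell median to -0.029 with quantile normalization and the acinar median to -0.012 in females. The cause was not tested.

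The 2 groups share replicate names, which do not pair the libraries: the correlation of their deviations was -0.048 to 0.076, and 1 of 6 correlated best with its own name. With a replicate block 6777 genes changed (3556 higher, 3221 lower), and of the named genes only Ddx3y lost its call. Low levels rest on few reads: 3 reads in a gene of 10 kb are 0.128 to 0.209 TPM, and differences below that are not detectable at this depth.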
